A study of Homo sapiens with 6 samples.

Results

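The genes described here are 51 named genes of mitosis: the cyclin B and CDK1 switch that starts it, the kinases, kinetochore proteins and kinesins that carry it out, and the checkpoint and protease control that ends it. They were taken by symbol from the 64253 genes counted in each of 6 RNA-seq libraries of PC-3, an established human prostate cancer cell line, and all 51 were found and had enough reads to be tested. The 2 groups were PC-3 cells stably infected with a lentiviral shRNA against CdGAP (shCdGAP, n = 3) and PC-3 cells with a control shRNA (shCon, n = 3), with no other treatment named. CdGAP, encoded by ARHGAP31, is a GTPase-activating protein for Rac1 and Cdc42. According to the methods, CdGAP-depleted PC-3 cells were grown out from single cells, which is not stated for the control cells, so that a difference between a clone and its parent population and an effect of the depletion cannot be told apart in these libraries. Bulk RNA does not separate fewer cells in mitosis from less RNA per cell in mitosis, and this applies to every level below.

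Mitosis begins when CDK1 bound to a B-type cyclin escapes the inhibitory phosphorylation that WEE1 and PKMYT1 place on it and that the CDC25 phosphatases take off. Kinetochores then attach chromosomes to spindle microtubules under the watch of the spindle checkpoint, and once all are attached the anaphase-promoting complex (APC/C) with CDC20 destroys securin and cyclin B. The transcripts of most of these genes accumulate together in G2 and mitosis, under B-MYB, FOXM1 and the MuvB complex, and are therefore read as markers of dividing cells.

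The libraries held between 33182796 and 43154039 counted reads. ARHGAP31, the targeted gene, had 26.4, 27.1 and 26.9 CPM (a read count scaled to library size with edgeR's TMM factors) in shCdGAP replicates 1, 2 and 3 and 58.9, 60.6 and 58.2 in the shCon replicates. Of the markers looked at for the cell line, KRT8, KRT18, EPCAM and CDH1 were read in every library, and KLK3 and KLK2 had no read. Leukocyte markers summed to 0.977 to 1.33 CPM in shCon and 1.47 to 1.65 CPM in shCdGAP libraries, with CD3E at 0, and endothelial markers to 5.69 to 5.84 and 2.44 to 6.06 CPM. Of 4 fibroblast-type matrix genes, COL1A1, COL3A1 and LUM were read in every library and DCN had at most 5 reads, and their sum was 18.9 to 20.3 CPM in shCon and 67.6 to 68.6 CPM in shCdGAP libraries. The part of these in the results below was not tested.

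Mitotic genes did not move as a block between CdGAP-depleted and control cells. Of the 51 genes, 13 were higher and 12 lower in shCdGAP cells at an adjusted p-value under 0.01 by edgeR's quasi-likelihood test, and 26 did not pass. This share of 49.0% was close to the 46.2% of all 16439 tested genes that passed the same test (24.1% higher and 22.0% lower). Their median log2 fold change (shCdGAP minus shCon) was -0.01, against 0.01 over all tested genes. The changes were small, with a median absolute log2 fold change of 0.18 against 0.31 over all tested genes. Every member had at least 378 reads in each library, and the comparisons with all tested genes were not matched for expression level. No member passed the thresholds the study used for its calls, a log2 fold change above 1 in size together with an adjusted p under 0.01, by edgeR, DESeq2 or limma-voom, where 12.8% of all tested genes did by edgeR. At an unadjusted p under 0.05, edgeR counted 31 of the 51 members, beside 63.7% of all tested genes. In 33 members (64.7%) the 3 shCdGAP libraries lay wholly on one side of the 3 shCon libraries, as they did in 67.1% of all tested genes. Of the 25 genes that passed, 6 had an absolute log2 fold change of at least 0.5: KIF20A, NDC80, KIF2C, HMMR and CENPA were higher and CDC25A was lower.

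**Figure D1:**
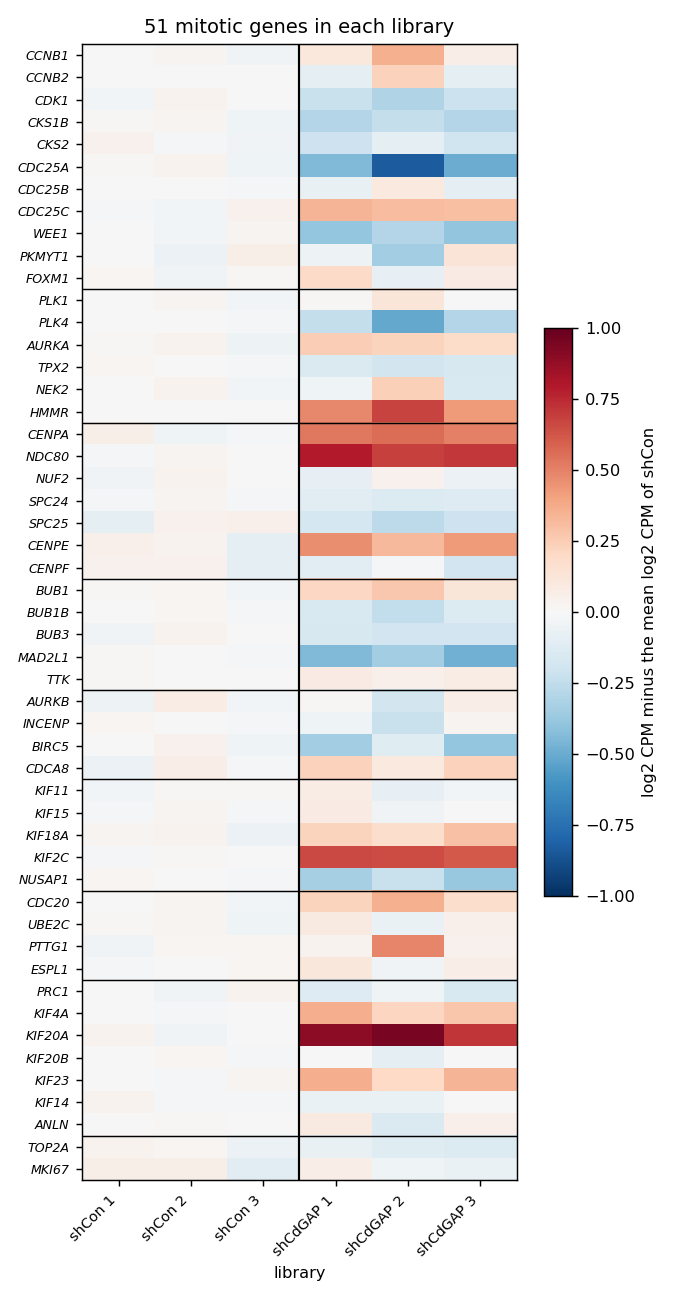
Level of each of the 51 mitotic genes (rows, grouped by step and divided by lines) in each of the 6 libraries (columns), as log2 CPM minus the mean log2 CPM of the 3 shCon libraries. The shCon columns are near 0 throughout, while the shCdGAP columns hold both higher (red) and lower (blue) genes within most steps, and shCdGAP replicate 2 departs from replicates 1 and 3 for genes such as PTTG1, CCNB2 and CDC25A.

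The 51 genes lie on 18 chromosomes. None is on chromosome 13 and 1, CKS2, is on chromosome 9. These chromosomes, set apart because genes on them lead several of the lists below, held 933 of the 16439 tested genes, and 3081 of the 3624 lower genes were on other chromosomes. Reads per member ranged from 378 (CDC25C, shCon replicate 3) to 14245 (TOP2A, shCon replicate 1) in a library, so that counting error was not equally small for all of them. Several have processed copies elsewhere in the genome. Most such copies held few reads here, with at most 73 in a library for CDC20P1. UBE2CP5, a copy of UBE2C, had 218, 182 and 196 reads in the shCdGAP and 290, 284 and 249 in the shCon libraries, without overlap. CKS1BP1, a copy of CKS1B, had 160 to 260 reads in shCdGAP and 17 to 25 in shCon libraries. CKS1BP1 lies within the span of BDKRB2, on the same strand, which itself had 337 to 478 reads in shCon and 4632 to 8852 in shCdGAP libraries. Reads that fit a gene and its copy equally well were not counted.

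Per kilobase of gene length, the members spanned a wide range in control cells. CKS2, a small CDK-binding subunit, was highest with 139 CPM per kb, followed by UBE2C, the ubiquitin-conjugating enzyme of the APC/C, with 90.6. BIRC5 (survivin) had 78.8, TPX2 73.8 and CDC20 72.4 CPM per kb. The lowest were CDC25C with 3.64 CPM per kb, separase (ESPL1) with 5.60 and KIF18A with 6.12. No genes at these ends of the order were among the 6 with the larger changes, which had between 8.96 CPM per kb (NDC80) and 19.5 (HMMR) in control cells.

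What these genes share beyond their names can be read in their promoters. Genes of this program carry a cell cycle homology region (CHR, searched here as the letters TTTGAA or TTCGAA only) to which MuvB binds, and upstream CCAAT boxes, bound by NF-Y. Both motifs were searched on both strands in RefSeq windows (GRCh38.p14) from 250 bases before to 50 bases after each start, with overlapping matches allowed, and 42 of the 51 members had a window. A CHR was present for 33 of these 42 genes (78.6%) against 19.5% of the 27305 genes in the table, and at least 1 CCAAT for 35 (83.3%) against 39.7%. At least 2 CCAAT boxes were found for 23 members (54.8%) against 12.9% of all genes. A CHR was found for 9 of 12 genes that were higher, 7 of 8 that were lower and 17 of 22 that did not pass. The median log2 fold change was -0.02 for the 33 members with a CHR and 0.18 for the 9 without, a description with no test. A match of letters is not a shown binding site, and a gene counted as without a CHR lacks only the 2 spellings searched.

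To show this, the 250 bases before the start are printed for 2 genes that were higher (KIF20A at chr5:138178862-138179111 and HMMR at chr5:163460382-163460631, both on the plus strand), 2 that were lower (CDC25A at chr3:48188418-48188667, minus strand, and CKS1B at chr1:154974431-154974680, plus strand) and 2 that did not pass (CCNB2 at chr15:59104896-59105145 and PLK1 at chr16:23678639-23678888, plus strand). They were picked after the values were seen. Each is written in the direction of the gene, with CHR (TTTGAA, or TTCAAA where it lies on the opposite strand, or TTCGAA) and CCAAT (or ATTGG on the opposite strand) in capitals.
KIF20A: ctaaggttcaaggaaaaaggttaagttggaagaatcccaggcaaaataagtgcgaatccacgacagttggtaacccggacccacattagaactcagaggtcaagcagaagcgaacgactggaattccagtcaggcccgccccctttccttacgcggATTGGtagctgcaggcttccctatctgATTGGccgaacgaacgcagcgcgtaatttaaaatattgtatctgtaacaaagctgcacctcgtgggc
HMMR: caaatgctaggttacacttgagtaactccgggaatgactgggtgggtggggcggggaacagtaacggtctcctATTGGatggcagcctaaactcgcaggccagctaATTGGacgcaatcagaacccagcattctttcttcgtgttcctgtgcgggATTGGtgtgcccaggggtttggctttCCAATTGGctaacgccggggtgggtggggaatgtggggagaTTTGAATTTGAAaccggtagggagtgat
CDC25A: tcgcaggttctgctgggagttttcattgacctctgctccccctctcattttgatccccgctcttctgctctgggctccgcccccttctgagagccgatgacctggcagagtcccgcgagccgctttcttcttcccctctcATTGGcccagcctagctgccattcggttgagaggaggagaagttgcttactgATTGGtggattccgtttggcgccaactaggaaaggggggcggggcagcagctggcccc
CKS1B: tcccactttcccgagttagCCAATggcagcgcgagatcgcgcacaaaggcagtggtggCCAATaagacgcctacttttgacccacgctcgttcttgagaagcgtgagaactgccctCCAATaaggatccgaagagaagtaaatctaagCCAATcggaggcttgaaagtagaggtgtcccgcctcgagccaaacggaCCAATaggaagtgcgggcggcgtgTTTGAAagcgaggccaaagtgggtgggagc
CCNB2: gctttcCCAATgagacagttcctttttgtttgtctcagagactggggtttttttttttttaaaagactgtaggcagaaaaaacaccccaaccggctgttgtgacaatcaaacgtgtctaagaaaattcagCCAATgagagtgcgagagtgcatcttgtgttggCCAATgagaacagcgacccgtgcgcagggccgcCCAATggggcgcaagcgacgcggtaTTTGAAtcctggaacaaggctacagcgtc
PLK1: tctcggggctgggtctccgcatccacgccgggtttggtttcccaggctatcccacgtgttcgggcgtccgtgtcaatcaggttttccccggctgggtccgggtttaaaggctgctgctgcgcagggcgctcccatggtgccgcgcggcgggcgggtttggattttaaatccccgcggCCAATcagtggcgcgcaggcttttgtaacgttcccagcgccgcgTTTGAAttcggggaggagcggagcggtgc
HMMR, CKS1B, CCNB2 and PLK1 each hold a CHR a short way before the start, with 5, 5, 4 and 1 CCAAT boxes. KIF20A and CDC25A hold 2 CCAAT boxes and neither of the 2 CHR spellings searched. The gene with the largest rise and the gene with the largest fall among the 51 thus had the same count of these letters. Whether either holds a CHR of another spelling was not searched.

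Genes that set the entry into mitosis were more often lower than higher. Of 11 genes, 1 was higher, 5 were lower and 5 did not pass, and the median log2 fold change was -0.08. The share called was 54.5%, against 46.2% of all tested genes. Beside the counts of this step and of each step below, 24.1% of all tested genes were higher and 22.0% lower. CDC25A (ENSG00000164045, chromosome 3 from 48157146 to 48188402), a phosphatase that activates CDKs at the G1/S transition and in G2, fell the most of all 51 genes. It had 56.4, 43.05 and 54.1 CPM in shCdGAP replicates 1, 2 and 3 and 76.99, 78.4 and 74.1 CPM in the shCon replicates. The groups did not overlap, and shCdGAP replicate 2 lay lowest. Its log2 fold change of -0.58 (edgeR adjusted p = 0.000876, standard error 0.0926) was a fall from 76.5 ± 2.18 to 51.2 ± 7.14 CPM (SD, n = 3 each). CDC25C (chromosome 5 from 138285265 to 138338355), which removes the inhibitory phosphates from CDK1 at the G2/M boundary, went the other way. It had 14.0, 13.7 and 13.6 CPM in the shCdGAP libraries and 11.0, 10.9 and 11.4 CPM in the shCon libraries, a log2 fold change of 0.31 (edgeR adjusted p = 0.00212, standard error 0.0621). The third member of the family, CDC25B, had 194 ± 14.4 CPM in shCdGAP and 196 ± 1.43 CPM in shCon cells (SD, n = 3 each), with overlapping groups. It passed without shCdGAP replicate 2 (log2 fold change -0.09, edgeR adjusted p = 0.00192).

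On the inhibitory side, WEE1 fell by 21.9%, from a mean of 71.0 ± 1.34 in shCon to 55.4 ± 2.21 CPM in shCdGAP cells (SD, n = 3 each; edgeR adjusted p = 0.000103). PKMYT1, the membrane-bound kinase with the same target, had a log2 fold change of -0.08 (adjusted p = 0.554 by edgeR) and overlapping groups. CDK1 itself fell from 242 ± 5.11 to 204 ± 6.59 CPM (SD, n = 3 each), by 15.7%, while its cyclins did not fall with it. CCNB1 had 158, 187 and 153 CPM in the shCdGAP libraries and 147, 149 and 143 CPM in the shCon libraries. All shCdGAP values were above all shCon values, replicate 2 by the most, and the log2 fold change of 0.18 did not pass (adjusted p = 0.0542 by edgeR, and 0.000433 with no filter on low counts). CCNB2 had 58.5, 73.6 and 58.6 CPM against 62.5, 63.0 and 62.8, so that shCdGAP replicate 2 lay above and the others below the control libraries. Without that replicate its log2 fold change turned negative and passed (-0.11, edgeR adjusted p = 0.00497). The CDK subunits CKS1B (log2 fold change -0.27) and CKS2 (-0.17) fell. CKS2 was just under the threshold (adjusted p = 0.00973 by edgeR) and passed in 5 of 15 alternatives. It did not pass with any of the replicates left out except shCdGAP replicate 2 (adjusted p up to 0.0376). FOXM1, a transcription factor for G2/M genes, had 118 ± 11.1 CPM in shCdGAP and 113 ± 2.21 CPM in shCon cells (SD, n = 3 each), with overlapping groups, and passed without shCdGAP replicate 2 (log2 fold change 0.13, edgeR adjusted p = 0.000387). The call of CDC25C was lost without shCdGAP replicate 1 (adjusted p = 0.0124), shCon replicate 1 (0.0174) or shCon replicate 2 (0.0173).

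**Figure D2:**
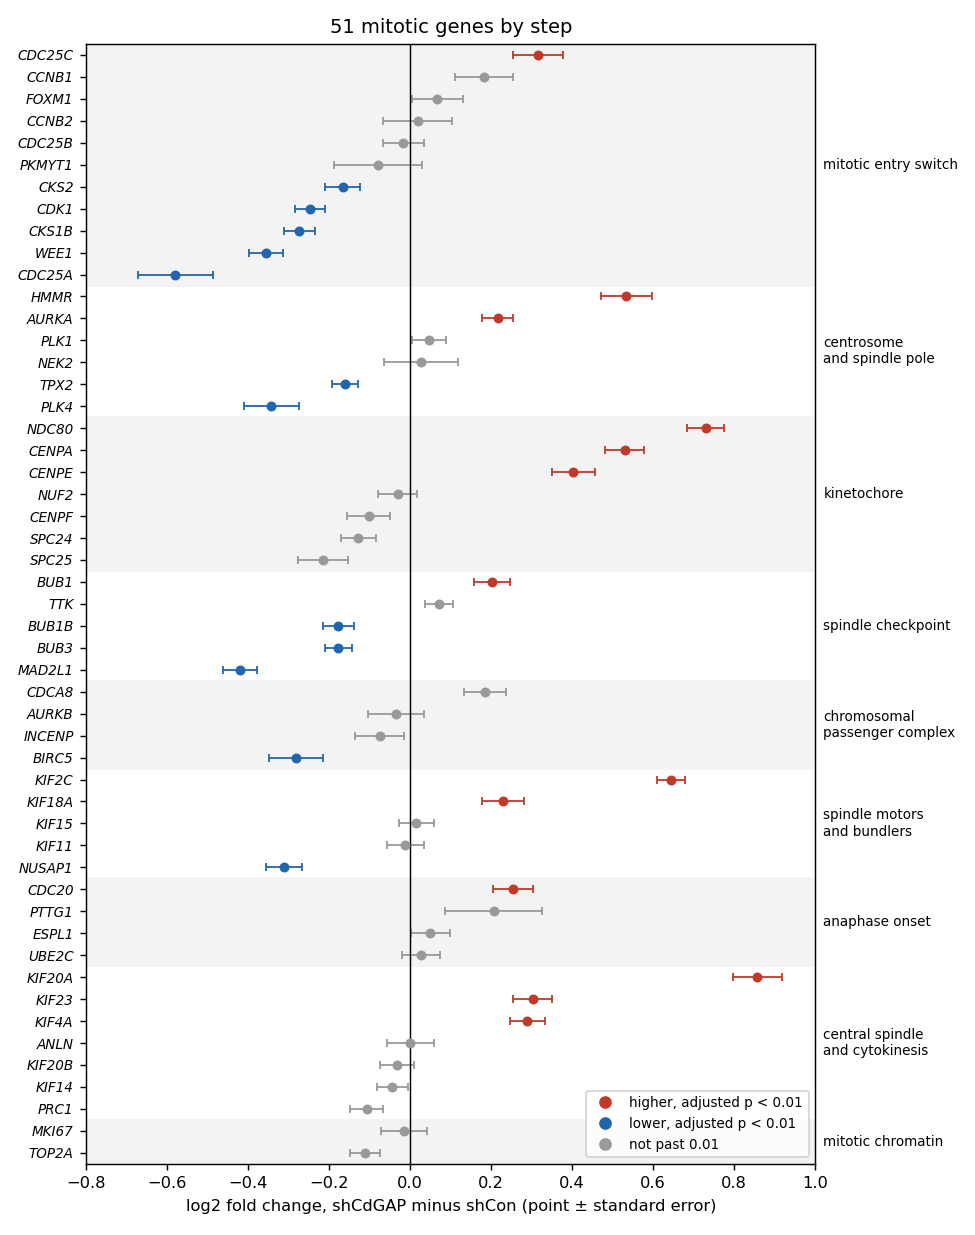
Log2 fold change (shCdGAP minus shCon) of the 51 genes by step of mitosis, as points with the standard error of edgeR's fit as bars. Genes higher (13, red) and lower (12, blue) at an adjusted p under 0.01 stand side by side in 4 of the 9 steps, and KIF20A at 0.86 and CDC25A at -0.58 mark the ends.

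Genes of the centrosome and spindle poles split evenly, with 2 of 6 higher, 2 lower and 2 not past the test. HMMR (ENSG00000072571, chromosome 5 from 163460203 to 163491945), which encodes a hyaluronan receptor that also sits at spindle poles, had 107, 123 and 103 CPM in the shCdGAP libraries and 77.1, 76.5 and 76.97 CPM in the shCon libraries. The lowest shCdGAP library was well above the highest control, a log2 fold change of 0.53 (edgeR adjusted p = 9.20e-05, standard error 0.0621). AURKA, the kinase that matures centrosomes, rose from 115 ± 3.45 to 134 ± 3.00 CPM (SD, n = 3 each; edgeR adjusted p = 0.00107, or 0.0108 without shCon replicate 3). TPX2, the protein that activates AURKA on the spindle, fell from 266 ± 3.82 to 238 ± 3.22 CPM (SD, n = 3 each; edgeR adjusted p = 0.00207, or 0.0124 without shCon replicate 1). PLK4, which licenses centriole duplication, had 37.1, 30.7 and 35.7 CPM in the shCdGAP libraries against 44.0, 44.0 and 43.3 CPM. Its log2 fold change was -0.34 (adjusted p = 0.00220 by edgeR), and its call was lost without shCon replicate 1 (adjusted p = 0.0102) or 2 (0.0103). PLK1, the kinase of the same family that drives mitosis itself, was not distinguishable, with 158 ± 7.45 and 153 ± 2.66 CPM (SD, n = 3 each). The centrosomal kinase NEK2 was not either, with a log2 fold change of 0.03.

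At the kinetochore, 3 of 7 genes were higher and 4 did not pass, and members of 1 complex diverged. NDC80 (ENSG00000080986, chromosome 18 from 2571511 to 2616635) encodes the microtubule-binding subunit of the 4-part NDC80 complex, whose other parts are NUF2, SPC24 and SPC25. NDC80 had 56.0, 51.8 and 52.6 CPM in the shCdGAP libraries and 31.8, 32.8 and 32.2 CPM in the shCon libraries. Its log2 fold change of 0.73 (edgeR adjusted p = 2.05e-06, standard error 0.0457) ranged from 0.68 to 0.74 with any single library left out. NUF2 had 42.8, 46.6 and 43.4 CPM against 44.1, 46.3 and 45.4, and the groups overlapped. SPC24 had a log2 fold change of -0.13 and SPC25 of -0.22, neither past the threshold (adjusted p = 0.0311 and 0.0159 by edgeR). SPC25 had 16.6, 15.6 and 16.3 CPM in the shCdGAP libraries, all below the 17.6, 19.3 and 19.5 CPM of the shCon libraries, and passed without shCdGAP replicate 2 (adjusted p = 0.00405). CENPA (ENSG00000115163), the histone H3 variant that marks centromeres, had 36.2, 37.0 and 35.7 CPM against 26.2, 24.4 and 24.8 CPM, a log2 fold change of 0.53 (edgeR adjusted p = 1.89e-05, standard error 0.0479). CENPE, the kinesin that brings chromosomes to the spindle equator, rose from 89.0 ± 4.69 to 118 ± 5.83 CPM (SD, n = 3 each), whereas CENPF, a large protein of the outer kinetochore, had overlapping groups (adjusted p = 0.130 by edgeR).

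Of 5 genes of the spindle checkpoint, 1 was higher, 3 were lower and 1 did not pass. In all 5 the groups did not overlap, as in 67.1% of all tested genes. MAD2L1 (chromosome 4 from 120055608 to 120067074), which binds and inhibits CDC20 until chromosomes are attached, had 95.0, 101 and 92.4 CPM in the shCdGAP libraries and 130, 129 and 127 CPM in the shCon libraries. MAD2L1 thus had a log2 fold change of -0.42 (edgeR adjusted p = 3.53e-05, standard error 0.0422), and its mean fell by 25.3%. BUB1B (BubR1) and BUB3, the other inhibitors in the mitotic checkpoint complex, each fell by 11.6%. BUB1, the kinase that recruits them to kinetochores, rose, with 135, 141 and 127 CPM against 117, 118 and 114 CPM and a log2 fold change of 0.20 (adjusted p = 0.00389 by edgeR). TTK (MPS1), the kinase at the top of the pathway, had a log2 fold change of 0.07 (adjusted p = 0.0969 by edgeR). MAD2L1 and BUB3 passed in all 15 alternatives. BUB1B lost its call without any single shCon replicate (adjusted p from 0.0108 to 0.0173), and BUB1 without shCdGAP replicate 1 or any single shCon replicate (0.0207 to 0.0299).

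The chromosomal passenger complex, in which AURKB is held at centromeres by INCENP, survivin (BIRC5) and borealin (CDCA8), had 1 gene lower and 3 not past the test. BIRC5 (chromosome 17 from 78214186 to 78225636) had 236, 276 and 230 CPM in the shCdGAP libraries and 301, 310 and 291 CPM in the shCon libraries. Replicate 2 of shCdGAP lay nearest to the controls without reaching them. BIRC5 had a log2 fold change of -0.28 (edgeR adjusted p = 0.00610, standard error 0.0667). Its call was lost with any single library left out other than shCdGAP replicate 2 (adjusted p from 0.0124 to 0.0263), with library-size scaling (0.01003) and with at least 10 reads required in every library (0.0104). CDCA8 had 58.0, 52.9 and 58.0 CPM against 47.6, 51.7 and 49.2, above the controls in every library, and did not pass (log2 fold change 0.19, adjusted p = 0.0132 by edgeR). It passed without shCdGAP replicate 2 (adjusted p = 3.19e-06) and with other scalings or filters (0.00194 to 0.00889). INCENP and AURKB had log2 fold changes of -0.08 and -0.04 with overlapping groups.

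Among 5 motors and bundlers of the spindle, 2 were higher, 1 was lower and 2 did not pass. KIF2C (MCAK, ENSG00000142945, chromosome 1 from 44739818 to 44767767), a kinesin that takes tubulin off microtubule ends to correct wrong attachments, had 104, 103 and 101 CPM in the shCdGAP libraries and 64.9, 66.5 and 66.0 CPM in the shCon libraries. It had the lowest adjusted p of the 51 genes (8.54e-07 by edgeR), with a log2 fold change of 0.64 (standard error 0.0349) that ranged from 0.62 to 0.65 with any single library left out. KIF18A, which damps chromosome oscillation, rose from 28.6 ± 1.03 to 33.5 ± 1.35 CPM (SD, n = 3 each; log2 fold change 0.23). It lost its call without any single library other than shCdGAP replicate 2 (adjusted p from 0.0150 to 0.0321), and with the replicate number as a block (0.0126). The motors that push spindle poles apart, KIF11 and KIF15, were not distinguishable, with log2 fold changes of -0.01 and 0.01. NUSAP1, which bundles microtubules near chromosomes, had 114, 123 and 110 CPM against 146, 143 and 141 CPM, a log2 fold change of -0.31 (adjusted p = 0.000334 by edgeR).

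At anaphase onset, 1 of 4 genes was higher and 3 did not pass. CDC20, the activator of the APC/C and the target of the checkpoint, had 173, 188 and 166 CPM in the shCdGAP libraries and 148, 150 and 144 CPM in the shCon libraries (log2 fold change 0.25, adjusted p = 0.00179 by edgeR). Its call was lost without any single shCon replicate (adjusted p from 0.0101 to 0.0157). UBE2C had 124, 111 and 121 CPM against 118, 119 and 113 CPM, with overlapping groups. Securin (PTTG1) had 80.7, 110 and 81.3 CPM against 76.7, 79.6 and 79.9. Its 3 shCdGAP values lay above the controls, 2 of them narrowly, and the log2 fold change of 0.21 had a standard error of 0.120 (adjusted p = 0.179 by edgeR). Separase (ESPL1), which securin restrains and which cuts cohesin, had a log2 fold change of 0.05 (adjusted p = 0.392 by edgeR).

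Genes of the central spindle and of cytokinesis gave 3 of 7 higher and 4 not past the test. KIF20A (MKLP2, ENSG00000112984, chromosome 5 from 138178719 to 138187715), the kinesin that carries the passenger complex to the central spindle in anaphase, had the largest change of the 51 genes. It had 105, 108 and 92.1 CPM in the shCdGAP libraries and 57.7, 54.8 and 56.0 CPM in the shCon libraries. The lowest shCdGAP library was far above the highest control, a log2 fold change of 0.86 (edgeR adjusted p = 4.31e-06, standard error 0.0607), or 1.81-fold, and from 0.80 to 0.91 with any single library left out. KIF23 (MKLP1), the kinesin of centralspindlin, and KIF4A, the kinesin that shortens the midzone with PRC1, rose by log2 fold changes of 0.30 and 0.29 (adjusted p = 0.000607 and 0.000437 by edgeR), and both passed in all 15 alternatives. PRC1, which bundles midzone microtubules, had 154, 163 and 151 CPM against 168, 165 and 172 CPM and did not pass (log2 fold change -0.11, adjusted p = 0.0431 by edgeR, and 6.14e-06 without shCdGAP replicate 2). KIF20B, the closest relative of KIF20A in the list, had 60.3, 56.6 and 60.3 CPM against 60.4, 61.4 and 59.6. KIF14, which works at the midbody, and anillin (ANLN), the scaffold of the contractile ring, were not distinguishable, with log2 fold changes of -0.04 and 0.00. The 2 genes most used to score dividing cells, MKI67 and TOP2A, did not pass. MKI67 had 292, 271 and 266 CPM in the shCdGAP libraries and 290, 290 and 257 CPM in the shCon libraries. TOP2A had 314, 303 and 302 CPM against 340, 335 and 318 CPM, a log2 fold change of -0.11 (adjusted p = 0.0302 by edgeR), and passed without shCdGAP replicate 2 (adjusted p = 0.000534).

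**Figure D3:**
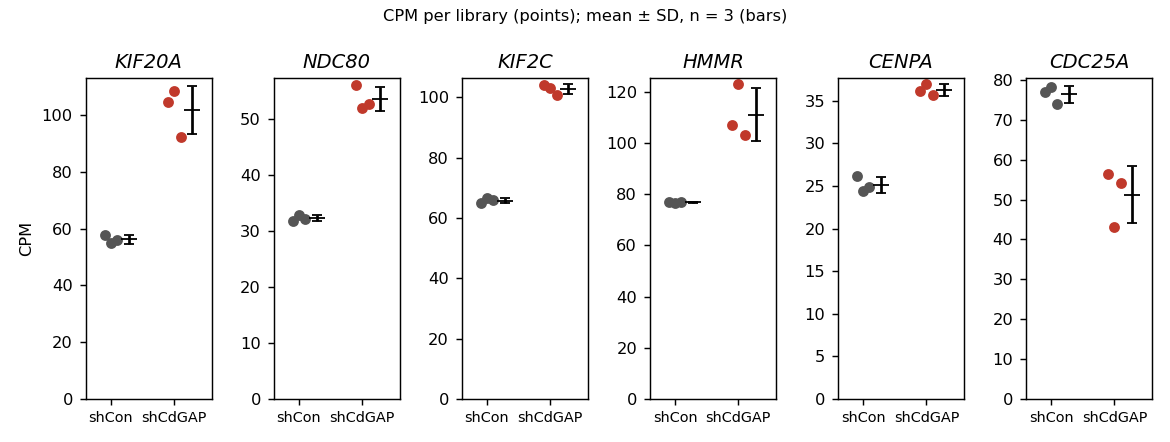
CPM per library (points) of the 6 genes past the test whose log2 fold change was at least 0.5 in size, each on its own axis from 0, with the mean ± SD (n = 3) beside the points. KIF20A, NDC80, KIF2C, HMMR and CENPA sit higher in every shCdGAP library than in any shCon library, and CDC25A sits lower.

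The ratio of reads between the genes of a pair was computed within each library, where the scaling between libraries drops out. Some pairs are partners or parts of the same complex, and others are relatives or enzymes with different or opposed roles. The 12 pairs were picked after the values were seen and are given without a test, and the separation of the groups in them follows from that choice. NDC80 to NUF2 had a log2 ratio of 0.39, 0.15 and 0.28 in the shCdGAP libraries and of -0.47, -0.50 and -0.50 in the shCon libraries. NDC80 thus went from fewer to more reads than NUF2, a difference of 0.76 between the group means. Against SPC24 the difference was 0.86 and against SPC25 it was 0.94. KIF20A to KIF20B had mean log2 ratios of 0.78 ± 0.16 in shCdGAP and -0.11 ± 0.050 in shCon cells (SD, n = 3 each). CDC25C to CDC25A differed by 0.90 and CDC25C to WEE1 by 0.67. CDC20 to its inhibitor MAD2L1 had log2 ratios of 0.86, 0.89 and 0.85 against 0.18, 0.22 and 0.18, a difference of 0.67 with the smallest SD among shCdGAP libraries (0.023) of the 12 pairs. AURKA to TPX2 and BUB1 to BUB3 both differed by 0.38, CENPE to CENPF by 0.51, PLK1 to PLK4 by 0.39 and CCNB1 to CDK1 by 0.42.

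**Figure D4:**
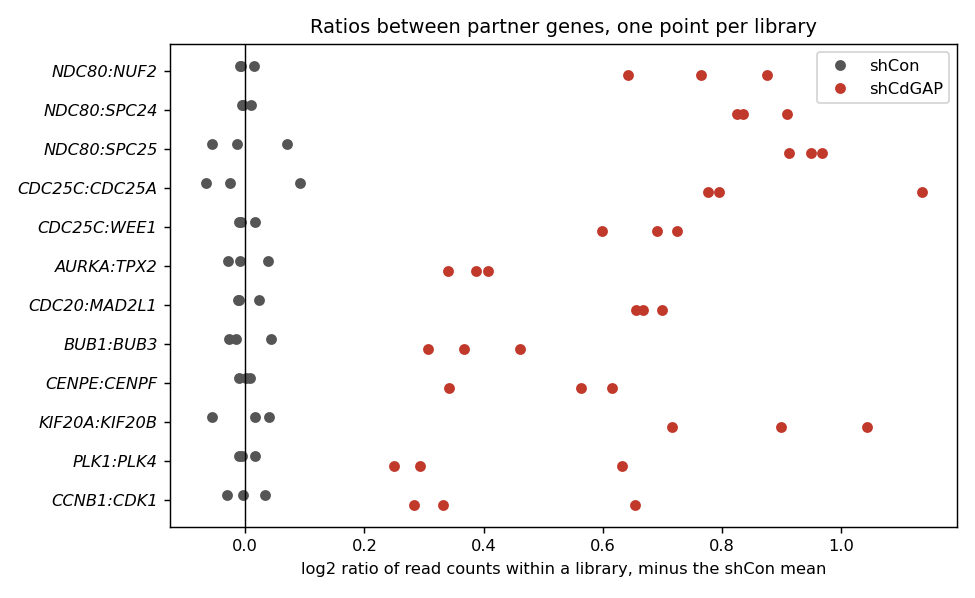
Log2 ratio of read counts between 2 genes within 1 library, minus the mean of the 3 shCon libraries, with 1 point per library and 1 row per pair. All shCdGAP points (red) lie to the right of the shCon points (grey), from 0.38 for AURKA to TPX2 and BUB1 to BUB3 up to 0.94 for NDC80 to SPC25 as differences of means.

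The shCdGAP libraries were less alike than the shCon libraries. The coefficient of variation of CPM had a median of 4.95% over the 51 genes in shCdGAP and 2.11% in shCon cells, and was larger in shCdGAP cells for 40 genes. Replicate 2 was the library apart over genes in general. Its counts differed from those of shCdGAP replicates 1 and 3 with a chi-square per degree of freedom of 26.6 and 32.7. Between replicates 1 and 3 it was 3.20. The level of replicate 2 lay more than 0.2 on the log2 scale above the mean of shCdGAP replicates 1 and 3 in 6 of the 51 members. It lay more than 0.2 below that mean in 7. These were smaller shares than the 17.7% and 14.5% of all tested genes, for which 0.5 CPM was added to each level. The 6 higher ones were PTTG1 (0.45), NEK2 (0.34), CCNB2 (0.33), CCNB1 (0.27), BIRC5 (0.24) and HMMR (0.22). The 7 lower ones were PKMYT1 (-0.39), CDC25A (-0.36), PLK4 (-0.24), AURKB (-0.22), FOXM1 (-0.22), INCENP (-0.22) and ANLN (-0.22). Over all 51 genes the median difference was -0.02. Without this library, 32 members passed the test in place of 25, with all 25 among them, and 60.0% of all tested genes passed. The 7 added were CCNB2, CDC25B, CDCA8, FOXM1, PRC1, SPC25 and TOP2A. Without shCon replicate 1, 16 members passed (9 higher and 7 lower) beside 34.4% of all tested genes.

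Other genes of mitosis, taken from lists written with earlier results of these data known, also moved in both directions, and are given by counts at an adjusted p under 0.01 by edgeR over all tested genes, of which 24.1% were higher and 22.0% lower. With 25.0% to 52.2% of their genes called, these 6 lists lay on both sides of the 46.2% called over all genes. Of 20 subunits and regulators of the APC/C, 4 were higher and 6 lower (median log2 fold change -0.10). CDC16, a scaffold subunit on chromosome 13, fell by 1.48 on the log2 scale, while ANAPC5 and ANAPC13 rose by 0.79 and 0.66. Of 23 cohesin and condensin genes, 1 was higher and 11 were lower (median -0.15). SGO1, which protects centromeric cohesin, fell from 34.1 ± 0.772 to 18.3 ± 1.08 CPM (SD, n = 3 each; log2 fold change -0.89, adjusted p = 2.17e-06 by edgeR), the condensin subunit SMC2 on chromosome 9 had -0.82, and the cohesin regulator PDS5B on chromosome 13 had -0.58.

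Of 33 genes of the inner kinetochore and the outer KMN network, 4 were higher and 6 lower (median -0.11), with the checkpoint genes KNTC1 (0.54) and MAD1L1 (0.51) higher and ZWINT (-0.47) lower. Of 33 other spindle and cytokinesis genes, 5 were higher and 9 lower (median 0.08). BORA, the activator of AURKA in G2, and CKAP2, a spindle protein, are both on chromosome 13 and had log2 fold changes of -1.68 and -1.56, whereas the cytokinesis kinase CIT had 0.80. Among 12 MuvB, MYB and pocket protein genes, which regulate the program, 1 was higher and 2 were lower (median -0.12). These were MYBL1 (0.53), TFDP1 on chromosome 13 (-1.77) and E2F4 (-0.27). Of 21 other mitotic kinases, cyclins and phosphatases, 1 was higher and 8 were lower (median -0.12), led by CDC14B on chromosome 9 (-1.22), MNAT1 (-0.72) and NEK7 (-0.52).

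DNA replication genes, which act before mitosis, were taken as a comparison. Of 54 such genes, 30 were lower and 24 did not pass, and the median log2 fold change was -0.27. The share called was 55.6%, all of it lower. Over all tested genes 46.2% were called, 24.1% higher and 22.0% lower. The largest changes were those of POLE3 (-0.78), POLD3 (-0.68) and MCM7 (-0.62). The corresponding counts for the 51 mitotic genes were 13 higher and 12 lower with a median of -0.01, and no test was made of the difference between the lists. On chromosomes other than 9 and 13 the medians were -0.25 for replication and -0.01 for mitotic genes.

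**Figure D5:**
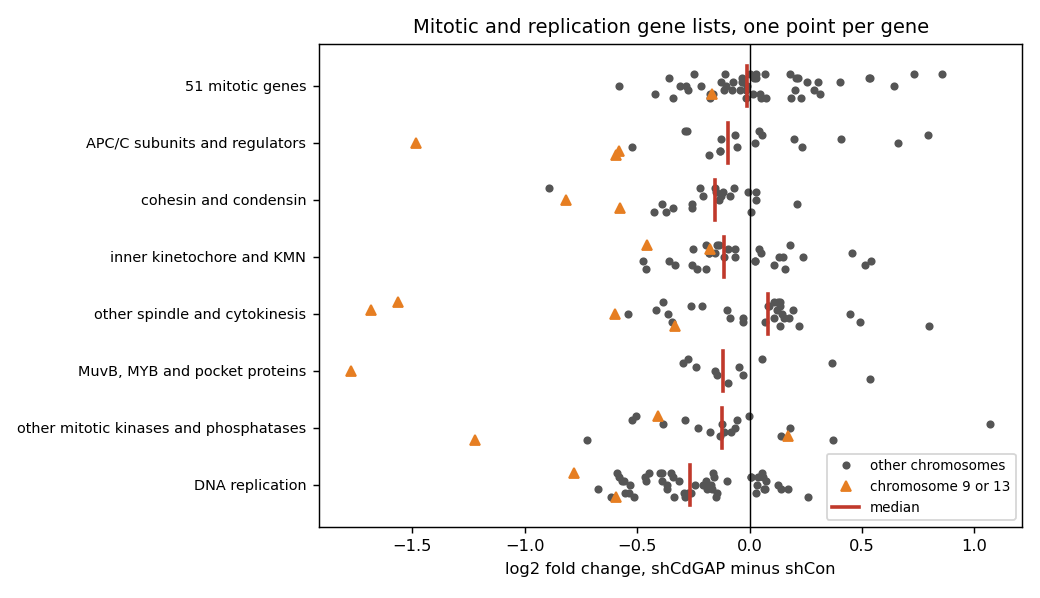
Log2 fold change (shCdGAP minus shCon) of each gene in the 51 mitotic genes, in 6 other lists of mitotic genes and in the DNA replication list, 1 point per gene, with the median of each list in red and genes of chromosomes 9 and 13 as orange triangles. The mitotic genes are centred at -0.01 and the replication genes at -0.27, and every point below -1 is a gene of chromosome 9 or 13, among them TFDP1 at -1.77, BORA at -1.68 and CDC16 at -1.48.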

How the data were processed

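Each library came with 1 table of raw counts per gene, deposited by the authors without normalization. Per the file headers, featureCounts 1.6.0 was run on the Ensembl release 77 annotation of GRCh38 with reverse-stranded counting of read pairs in which both ends mapped, while the submitters' processing notes name STAR 2.5.1b and featureCounts 1.4.6 and the methods a single-read kit. Under these settings multi-mapping reads, and reads shared by overlapping genes on the same strand, stay uncounted.

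Here, symbols were joined by Ensembl ID (56105 of 64253 genes matched), and all 51 members and 196 of 197 symbols on 7 other lists were found, the remaining symbol being an older name of a gene already listed. The members and lists were chosen with earlier results of these data known. The test was edgeR 4.0.16 (R 4.3.3), by its quasi-likelihood F test with robust fitting after filterByExpr and TMM scaling, with p-values adjusted by Benjamini-Hochberg over the 16439 genes kept. It was run with DESeq2 1.42.0 and limma 3.58.1 (voom) as alternatives, and tables were made with Python 3.11.15. No pairing of libraries was assumed. Standard errors are the absolute log2 fold change over the square root of F, and CPM uses TMM-adjusted library sizes. The methods name 3 independent samples per group and do not say whether those of shCdGAP were separate clones. The pairs of libraries within a group all differed by more than sampling noise (chi-square per degree of freedom from 2.58 to 32.7). With 3 libraries in each group an exact two-sided permutation test has 0.1 as its smallest p, and none was run on single genes. The rule for named genes was every member past an adjusted p of 0.01, values per library for those with an absolute log2 fold change of at least 0.5 and for the highest and lowest of each step, and up to 3 genes of each other list. Some marker genes are not reported here.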

Additional observations from a re-analysis of the deposited data

How the results depend on the processing

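The counts over all genes and over the members, the members' fold changes and the medians of members and steps were recomputed under 15 alternatives (other tools, scalings and filters, a replicate block, and each of the 6 libraries left out), and the counts also at an adjusted p under 0.05. The pair ratios and promoter counts were not recomputed. None of the 25 called members changed direction, and 15 passed 0.01 in every alternative. In the tool, scaling and filter alternatives the members that passed numbered 24 to 27, the 27 with no filter on low counts, where 28.5% of all genes passed. The correlation of deviations between same-numbered libraries was 0.0306, 0.0499 and 0.0469, and between differently numbered ones from -0.0741 to 0.0275. Whether the numbers pair the samples was not tested. With the replicate block 23 members passed (12 higher, 11 lower) beside 44.0% of all genes, without CKS2 and KIF18A. With 1 library left out, 9 to 15 members were higher and 7 to 17 lower, the 7 being without shCon replicate 1, while 34.4% to 60.0% of all genes passed. No member passed an absolute log2 fold change above 1 in any of them. The median of the members stayed between -0.03 and 0.01, and that of the entry genes between -0.16 and -0.05. The 7 other lists were put through the same 15 alternatives after the data had been seen, and each list's median kept its sign. For DNA replication it ranged from -0.31 to -0.22, with 20 to 35 genes lower and 0 to 8 higher, the 8 being without shCdGAP replicate 2 and with 1 higher by DESeq2.

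Sign changes occurred only in 12 members that did not pass. ANLN had a log2 fold change of -0.0078 by DESeq2, -0.0040 by limma-voom, -0.0078 with DESeq2 size factors, -0.019 with TMM factors from other chromosomes than 9 and 13, -0.0030 with the replicate block, and -0.057 to 0.060 with 1 library left out. With those TMM factors CCNB2 had -0.00047 and KIF15 -0.0045. With library-size scaling CDC25B had 0.0085, KIF11 0.013 and MKI67 0.010. With 1 library left out the ranges were -0.11 to 0.066 for CCNB2, -0.090 to 0.0068 for CDC25B, -0.20 to 0.031 for PKMYT1, -0.0099 to 0.13 for FOXM1, -0.0028 to 0.060 for PLK1, -0.10 to 0.097 for NEK2, -0.095 to 0.024 for AURKB, -0.067 to 0.014 for KIF11, -0.030 to 0.033 for KIF15, -0.016 to 0.061 for UBE2C and -0.085 to 0.0018 for MKI67. The causes were not tested.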
